A study of Arabidopsis thaliana with 9 samples.

Results

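CHLM (AT4G25080), NOL (AT5G04900) and SGRL (AT1G44000) are 3 nuclear genes of chlorophyll synthesis and breakdown in Arabidopsis thaliana. They were chosen by locus, each at the 1 transcript cluster (a set of array probes summarised to 1 value) that is paired with it alone, and are 3 of 16548 genes measured that way. The samples were leaves cut from soil-grown Col-0 plants of 21 days, with 10 to 15 leaves pooled in each. They were kept in the dark for 48 h in MS medium with 10 µM compound 6 (3 samples), 10 µM compound 3 (3 samples) or 0.05% DMSO as control (3 samples). A DMSO percentage is recorded for the control samples only. The labels call both compounds cytokinins, the hormones known to slow leaf senescence, name them by number alone, and call the samples biological replicates. No leaves were sampled at the start of the dark period, so a transcript that is higher with a compound may have gained or may have been lost more slowly. Control samples and the samples of each compound carry separate runs of sample numbers in the label descriptions. What these numbers follow is not stated, and anything that follows them cannot be told apart from treatment.

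Chlorophyll is made in plastids from glutamate through a chain of tetrapyrroles. Magnesium chelatase places magnesium in protoporphyrin IX, and CHLM, a methyltransferase, then methylates the product on the way to protochlorophyllide, whose reduction in flowering plants needs light. In breakdown, chlorophyll b must be turned into chlorophyll a, and NOL, with its relative NYC1, is the chlorophyll b reductase that starts this conversion. Stay-green proteins then remove magnesium from chlorophyll a, and SGRL is a relative of them. Leaves kept in the dark yellow as chlorophyll is lost, and cytokinins are known to retard the yellowing. The enzymes act on pigment, which was not measured here, and the values below are transcript levels.

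Values are log2 RMA values, so a difference of 1 is a 2-fold change, and they ran from 0.132 to 13.9 over the 9 arrays. RefSeq names the SGRL locus by its identifier alone. The array medians over transcript clusters paired with 1 gene were 3.73 to 3.80 with compound 6, 3.71 to 3.81 with compound 3 and 3.70 to 3.76 in control leaves. Of 16722 such clusters, limma called 10.3% with compound 6 and 11.7% with compound 3 at a Benjamini-Hochberg adjusted p under 0.05. With compound 6 this was 939 higher and 789 lower, and with compound 3 it was 936 higher and 1021 lower. That balance depends on the scaling. When the median of all 38408 transcript clusters was made equal between arrays, the calls were 551 higher and 1569 lower with compound 6, and 591 higher and 1424 lower with compound 3. Quantile normalization applied again gave 731 higher and 1147 lower with compound 6, and 800 higher and 1278 lower with compound 3.

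Leaves kept in the dark with either compound held more CHLM and SGRL transcript and less NOL transcript than DMSO control leaves. SGRL was 3.88-fold higher with compound 6 and 2.81-fold higher with compound 3, and CHLM was 2.14-fold and 2.63-fold higher. NOL was 2.50-fold lower with compound 6 and 3.42-fold lower with compound 3. All 6 of these differences passed the test over all genes, 4 of them higher and 2 lower. The genes were chosen with earlier results of these data known, so this count is not independent of that choice. Of all clusters, 5.62% were called higher and 4.72% lower with compound 6, and 5.60% higher and 6.11% lower with compound 3. Calls in the same direction with both compounds were made for 3.56% of clusters on the higher side and 3.62% on the lower side. For all 3 genes the treated and control arrays did not overlap. All treated arrays were above all control arrays for 11.9% of clusters with compound 6 and 12.9% with compound 3, and below them for 12.7% and 13.4%. The 2 comparisons share the same control arrays.

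**Figure D1:**
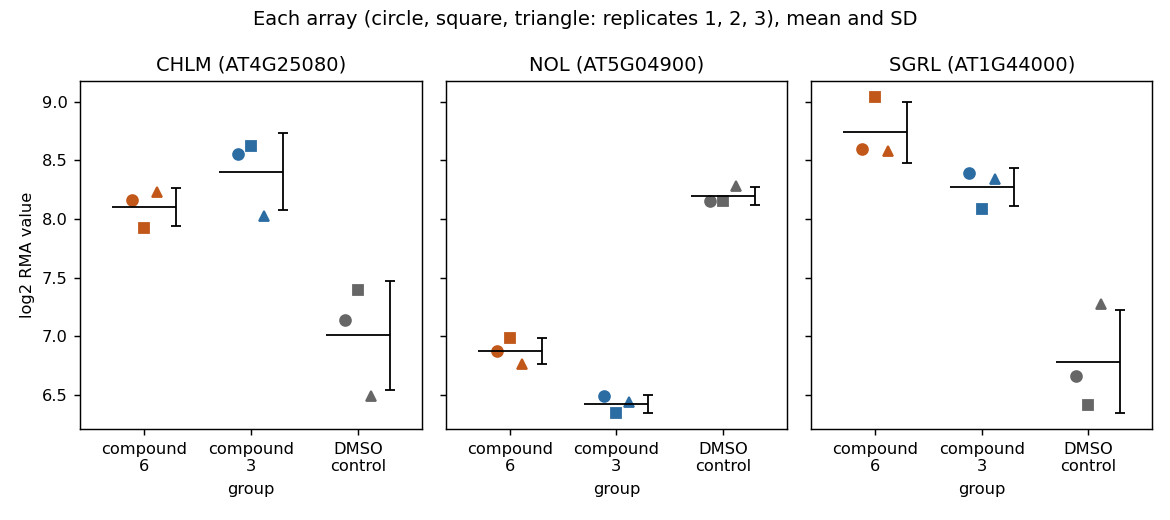
Log2 RMA value of CHLM, NOL and SGRL on each of the 9 arrays, grouped by treatment. Symbols mark replicates 1 to 3, the horizontal line is the group mean and the bar is the SD (n = 3). In each panel the treated arrays lie on 1 side of the control arrays, above them for CHLM and SGRL and below them for NOL.

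CHLM, the methyltransferase of the synthesis branch, read 8.16, 7.92 and 8.23 on the compound 6 arrays and 8.55, 8.63 and 8.03 on the compound 3 arrays, against 7.13, 7.39 and 6.49 on the control arrays. Every treated array was above every control array, and the control arrays differed most among themselves, with replicate 3 the lowest. Group means were 8.10 ± 0.16 with compound 6, 8.40 ± 0.33 with compound 3 and 7.01 ± 0.47 in control leaves (SD, n = 3 each). CHLM rose by 1.10 on the log2 scale with compound 6 (SE 0.25, 95% interval 0.56 to 1.64, limma adjusted p = 0.0112). With compound 3 it rose by 1.40 (SE 0.25, 95% interval 0.86 to 1.94, limma adjusted p = 0.00213). An increase at least this large was seen in 479 clusters (2.86%) with compound 6 and in 245 (1.47%) with compound 3. The compound 6 call ended with the medians of all transcript clusters made equal between arrays (0.85, limma adjusted p = 0.0577).

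NOL, the chlorophyll b reductase, read 6.87, 6.98 and 6.77 with compound 6 and 6.49, 6.34 and 6.44 with compound 3, against 8.15, 8.16 and 8.28 in control leaves. The 3 groups did not overlap, and the arrays of a group lay close together. Group means were 6.87 ± 0.11 with compound 6, 6.42 ± 0.074 with compound 3 and 8.20 ± 0.076 in control leaves (SD, n = 3 each). The gap between the nearest treated and control arrays was 1.17 with compound 6 and 1.66 with compound 3. NOL fell by 1.32 with compound 6 (SE 0.18, 95% interval -1.71 to -0.94, limma adjusted p = 0.000292). With compound 3 it fell by 1.78 (SE 0.18, 95% interval -2.16 to -1.39, limma adjusted p = 1.81e-05). A fall at least this large was seen in 243 clusters (1.45%) with compound 6 and in 160 (0.957%) with compound 3.

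SGRL, the relative of the stay-green proteins, read 8.59, 9.04 and 8.58 with compound 6 and 8.39, 8.09 and 8.34 with compound 3, against 6.66, 6.42 and 7.27 in control leaves. Every compound 6 array was above every compound 3 array, and these were all above the control arrays, of which replicate 3 was the highest. Group means were 8.74 ± 0.26 with compound 6, 8.27 ± 0.16 with compound 3 and 6.78 ± 0.44 in control leaves (SD, n = 3 each). SGRL rose by 1.96 with compound 6 (SE 0.24, 95% interval 1.44 to 2.47, limma adjusted p = 0.000142). With compound 3 it rose by 1.49 (SE 0.24, 95% interval 0.98 to 2.00, limma adjusted p = 0.000915). An increase at least this large was seen in 75 clusters (0.449%) with compound 6 and in 195 (1.17%) with compound 3. Although both are listed under breakdown, SGRL and NOL moved in opposite directions.

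**Figure D2:**
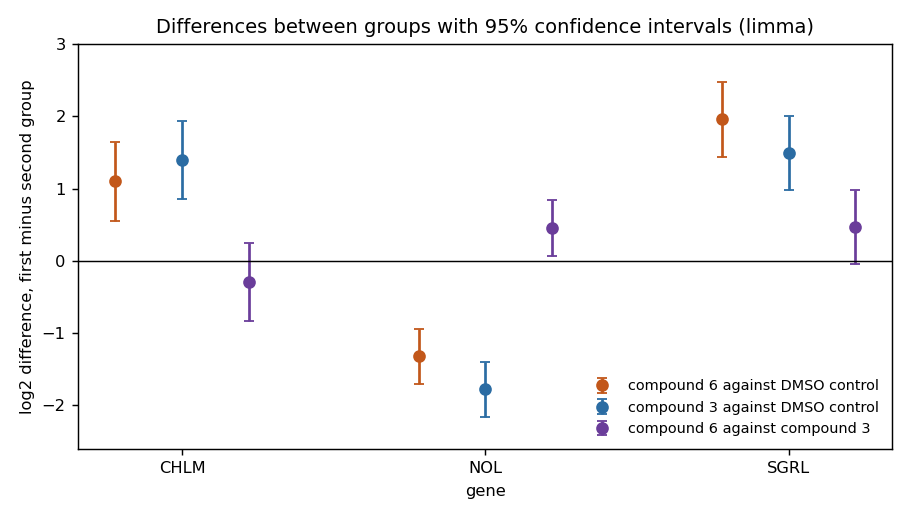
Log2 difference of each gene in the 3 comparisons, as the first named group minus the second, with 95% confidence intervals from limma. The intervals against control lie wholly above 0 for CHLM and SGRL and wholly below 0 for NOL, and the differences between the compounds are smaller than those against control.

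Between compound 6 and compound 3, which were used at the same concentration and time, none of the 3 genes passed limma's test over all genes, and 1 of them, NOL, had an unadjusted p under 0.05. In this comparison limma called 0.299% of clusters. NOL was 0.45 higher with compound 6 than with compound 3 (95% interval 0.07 to 0.84, unadjusted p = 0.0236, limma adjusted p = 0.381). SGRL was 0.47 higher (95% interval -0.05 to 0.98, limma adjusted p = 0.557), and CHLM was 0.30 lower (95% interval -0.84 to 0.24, limma adjusted p = 0.783). For NOL and SGRL every compound 6 array lay above every compound 3 array, which was the case for 8.13% of all clusters, and for CHLM the arrays overlapped. These intervals leave room for differences between the compounds of up to about 0.84 for NOL and 0.98 for SGRL on the log2 scale. In the order of levels, each gene stood apart from control with either compound, and the 2 compounds are neighbours that did not differ by the test over all genes.

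A difference between 2 genes taken within an array does not change when a constant is added to all log2 values of that array, as in the scaling by medians above. Its absolute size depends on the probes, so only its change between groups can be read. CHLM minus NOL was 1.29, 0.94 and 1.46 on the compound 6 arrays and 2.07, 2.29 and 1.59 on the compound 3 arrays, against -1.01, -0.76 and -1.80 on the control arrays. Its mean was higher than in control leaves by 2.42 with compound 6 and by 3.17 with compound 3. SGRL minus NOL was 1.72, 2.06 and 1.81 with compound 6 and 1.90, 1.75 and 1.90 with compound 3, against -1.49, -1.74 and -1.01 in control leaves. This second measure was higher than in control leaves by 3.28 with compound 6 and by 3.27 with compound 3, so the compounds lay close together on it. SGRL minus CHLM was 0.43, 1.12 and 0.35 with compound 6 and -0.16, -0.54 and 0.31 with compound 3, against -0.47, -0.98 and 0.78 in control leaves, and here the groups overlapped. These within-array values are a description and were not tested.

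**Figure D3:**
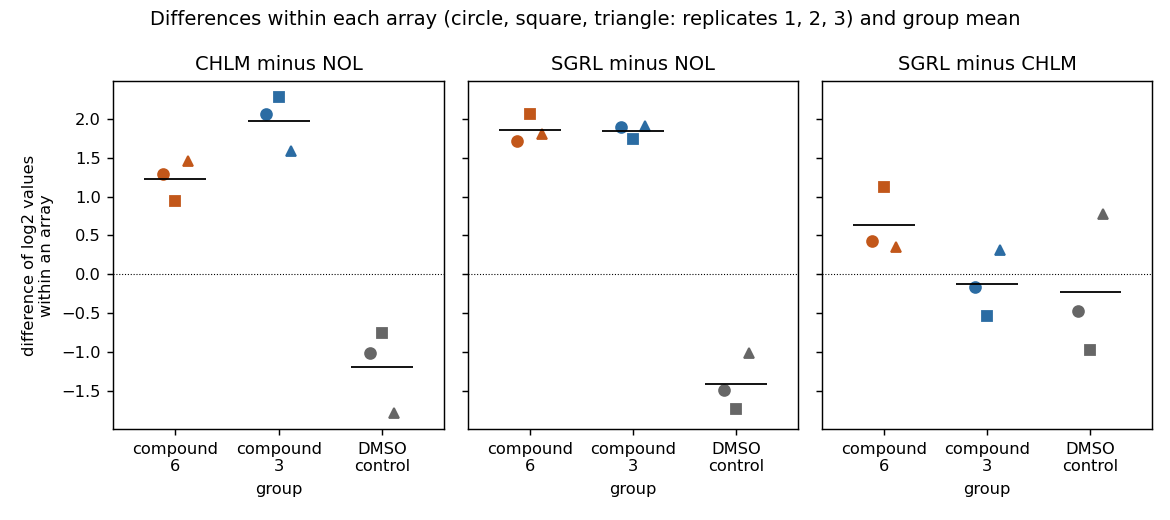
Difference of log2 values between 2 genes on each array, with symbols for replicates 1 to 3 and a line at the group mean. The treated arrays lie between 0.94 and 2.29 for CHLM minus NOL and between 1.72 and 2.06 for SGRL minus NOL, above all control arrays, while the groups overlap for SGRL minus CHLM.

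In the synthesis pathway, 10 of 32 listed genes had a transcript cluster of their own, and the other 22 are not analysed here. With compound 6, 2 of the 10 rose and 8 did not pass, and the counts were the same with compound 3. Of all clusters, 5.62% rose with compound 6 and 5.60% with compound 3. The 2 were CHLM and AT1G74470, annotated as geranylgeranyl reductase, which makes the phytyl tail of chlorophyll. AT1G74470 read 9.18, 9.18 and 8.89 with compound 6 and 8.74, 8.77 and 8.99 with compound 3, against 7.60, 7.14 and 7.03 in control leaves. Its treated arrays were all above its control arrays, by at least 1.29 with compound 6 and 1.14 with compound 3. All treated arrays were above all control arrays for 11.9% of clusters with compound 6 and 12.9% with compound 3. AT1G74470 rose by 1.82 with compound 6 (SE 0.21, limma adjusted p = 7.71e-05) and by 1.58 with compound 3 (SE 0.21, limma adjusted p = 0.000185).

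The 8 other measured synthesis genes did not pass with either compound. PORB, a protochlorophyllide oxidoreductase, averaged 5.99 ± 0.048 with compound 6 and 5.59 ± 0.23 with compound 3, against 5.53 ± 0.25 in control leaves (SD, n = 3 each). Its compound 6 arrays lay above its control arrays, as for 11.9% of all clusters, with a log2 difference of 0.47 (limma unadjusted p = 0.0369, adjusted p = 0.194). HEMA2, a glutamyl-tRNA reductase, differed from control by -0.13 with compound 6 and 0.25 with compound 3. GSA1, which makes aminolevulinate, differed by 0.06 and 0.15, and the uroporphyrinogen decarboxylases HEME1 and HEME2 differed by 0.38 and 0.13 with compound 6 and by 0.28 and 0.11 with compound 3. HEMA3, HEMB2 and HEMF2 averaged 1.59 to 2.70 in every group, below the array medians, where a change would be hard to see. The median difference of the 10 genes was 0.15 with compound 6 and 0.20 with compound 3, against -0.02 and 0.01 over all clusters tested.

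Of 16 listed genes of breakdown and its regulation, 4 had a transcript cluster of their own and 12 are not analysed here, among them NYC1 and the stay-green genes SGR1 and SGR2. With each compound 3 of the 4 rose and NOL alone fell. Of all clusters, 5.62% rose and 4.72% fell with compound 6, and 5.60% rose and 6.11% fell with compound 3. The median difference of the 4 genes was 1.41 with compound 6 and 1.20 with compound 3, against -0.02 and 0.01 over all clusters tested. Beside SGRL the genes that rose were AT5G38520 and AT2G35260, entered in the list as CLD1 and BCM1, which the gene tables give no name. The list joins breakdown with its regulation, so a rise in it cannot be read as more breakdown. AT5G38520 averaged 6.16 ± 0.23 with compound 6 and 6.12 ± 0.11 with compound 3, against 4.79 ± 0.26 in control leaves (SD, n = 3 each). It rose by 1.37 (limma adjusted p = 0.000649) with compound 6 and by 1.33 (limma adjusted p = 0.000684) with compound 3. AT2G35260 averaged 8.85 ± 0.094 with compound 6 and 8.47 ± 0.13 with compound 3, against 7.39 ± 0.28 in control leaves (SD, n = 3 each). It rose by 1.46 (limma adjusted p = 0.000321) with compound 6 and by 1.07 (limma adjusted p = 0.00267) with compound 3.

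LIL3:1 and LIL3:2, light-harvesting-like proteins that hold geranylgeranyl reductase at the thylakoid membrane, were the 2 of 10 genes measured in the list of heme, siroheme and phytol branches. Both rose with both compounds, as did 3.56% of all clusters. LIL3:2 (AT5G47110) read 6.90, 6.75 and 6.58 with compound 6 and 7.10, 6.51 and 6.69 with compound 3, against 5.34, 5.44 and 4.95 in control leaves. It rose by 1.50 (SE 0.22, limma adjusted p = 0.000487) with compound 6 and by 1.53 (SE 0.22, limma adjusted p = 0.000361) with compound 3. LIL3:1 (AT4G17600) rose by 1.18 with compound 6 (limma adjusted p = 0.00361) and by 0.98 with compound 3 (limma adjusted p = 0.0107). LIL3:1 stood at 2.21 ± 0.26 in control leaves (SD, n = 3), below the array medians, and its compound 3 call ended without compound 3 replicate 1 (0.90, limma adjusted p = 0.0532) and with medians over all transcript clusters made equal (0.83, limma adjusted p = 0.0532).

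**Figure D4:**
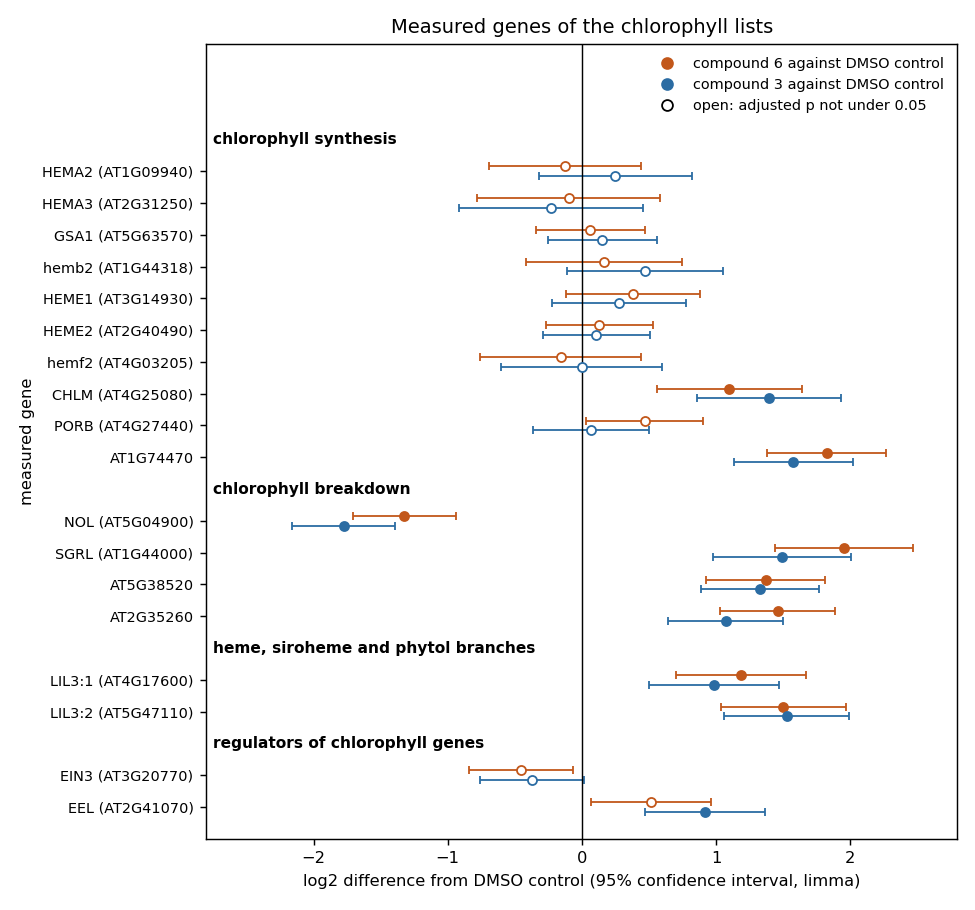
Log2 difference from DMSO control with 95% confidence interval for the 18 measured genes of 4 lists, for compound 6 and compound 3, where open circles did not pass at an adjusted p under 0.05. CHLM, AT1G74470, SGRL, AT5G38520, AT2G35260, LIL3:1 and LIL3:2 lie right of 0 with both compounds, NOL lies left of 0, and 8 synthesis genes did not pass.

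Among 14 listed regulators of chlorophyll genes 2 were measured. EEL (AT2G41070), a bZIP transcription factor, rose by 0.92 with compound 3 (limma adjusted p = 0.0102), and with compound 6 its difference was 0.52 (limma adjusted p = 0.160). EIN3 (AT3G20770), a transcription factor of ethylene signalling, differed by -0.45 with compound 6 and -0.37 with compound 3 and did not pass (limma adjusted p = 0.153 and 0.245). Its treated arrays were all below its control arrays, which was the case for 12.7% of all clusters with compound 6 and 13.4% with compound 3. Of 18 listed genes for light-harvesting proteins, which bind chlorophyll a and b, 4 were measured, and 2 of these rose with compound 6 and 1 with compound 3, against 5.62% and 5.60% of all clusters. LHCB4.1 differed by 0.01 with compound 6 and -0.05 with compound 3, LHCB4.3 by -0.30 and -0.26, and neither passed. LHCB4.2 (AT3G08940) rose by 0.86 (limma adjusted p = 0.0201) with compound 6 and by 0.71 (limma adjusted p = 0.0499) with compound 3, and LHB1B2 (AT2G34420) rose by 0.82 with compound 6 (limma adjusted p = 0.0156). The LHCB4.2 call with compound 3 was kept in 4 of 19 alternatives, its call with compound 6 in 14 of 19, and that of LHB1B2 in 16 of 19. The LHB1B2 call was lost without compound 6 replicate 1 (0.75) or DMSO control replicate 1 (0.71). The LHCB4.2 call with compound 6 was lost without compound 6 replicate 2 or 3 or DMSO control replicate 1 or 2 (0.73 to 0.83). With compound 3 the LHCB4.2 call was lost without any 1 array but DMSO control replicate 3 (0.58 to 0.79). Making the medians of all transcript clusters equal also ended the LHB1B2 call (0.57) and the LHCB4.2 calls with compound 6 (0.62) and compound 3 (0.55).

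Closeness of pattern was the root mean square difference of log2 values over the 9 arrays, each gene centred on its own mean. It was sought only among the 1762 genes with a symbol other than the locus. Genes without a symbol, such as AT1G74470, could not be found this way. For each member the 3 closest were taken. For CHLM these were PGY1 (AT2G27530), a ribosomal protein, at 0.22, BSH (AT3G17590), a chromatin remodelling subunit, at 0.24, and FAMT (AT3G44860), a methyltransferase, at 0.24. PGY1 and BSH had the same low control replicate 3 as CHLM, at 4.39 and 4.77. PGY1 differed by 0.75 with compound 6 (limma adjusted p = 0.136) and rose by 0.96 with compound 3 (limma adjusted p = 0.0461), a call kept in 7 of 19 alternatives. BSH differed by 0.77 with compound 6 (limma adjusted p = 0.0628) and rose by 1.01 with compound 3 (limma adjusted p = 0.0147), a call kept in 17 of 19. The BSH call was lost without compound 3 replicate 1 (limma adjusted p = 0.0564) and with the medians of all transcript clusters made equal (limma adjusted p = 0.0576). FAMT rose by 1.50 with compound 6 and by 1.65 with compound 3. For NOL the closest were NQR (AT1G49670) at 0.18, a transcript cluster of the glycosyltransferase UGT85A4 (AT1G78270) at 0.19 and the sucrose-phosphate synthase ATSPS4F (AT4G10120) at 0.20. That cluster fell by 1.17 with compound 6 and by 1.57 with compound 3, while the second cluster of UGT85A4 differed by -0.19 and -0.09 and did not pass (limma adjusted p = 0.701 and 0.857). ATSPS4F fell by 1.56 with compound 6 and by 2.23 with compound 3. For SGRL they were PIF7 (AT5G61270), a phytochrome-interacting transcription factor, at 0.20, LrgB (AT1G32080), a plastid envelope protein, at 0.23, and DECOY (AT1G14620) at 0.27. PIF7 rose by 1.78 with compound 6 and by 1.46 with compound 3. Closeness was measured on the same arrays and is a description.

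In the RefSeq gene order of TAIR10.1, the gene models of CHLM and its neighbour AT4G25090 overlap, so part of either signal could come from the other. The cluster of AT4G25090 differed by 0.22 with compound 6 and 0.35 with compound 3 and did not pass (limma adjusted p = 0.725 and 0.471). AT4G25070, a neighbour of CHLM that does not overlap it and was looked at after the data were seen, rose by 0.98 with compound 6 (limma adjusted p = 0.0162) and by 1.58 with compound 3 (limma adjusted p = 0.000551). Its compound 6 call was kept in 15 of 19 alternatives and ended without compound 6 replicate 1 (0.84), compound 6 replicate 3 (0.96) or DMSO control replicate 3 (0.80), and with the medians of all clusters made equal (0.73). NOL and SGRL overlap no other protein-coding gene there, and their 6 measured neighbours did not pass with either compound (limma adjusted p from 0.268 to 0.987).

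Some other leaf markers moved on the same arrays. All 3 measured mesophyll markers of 9 listed, RCA, SBPASE and PRK, rose with both compounds, against 3.56% of all clusters. They rose by 1.13 to 3.13 with compound 6 and by 0.93 to 2.77 with compound 3. In whole leaves, more cells of a type and more RNA per cell cannot be told apart, and the part of this in the values of CHLM, SGRL and NOL was not tested. The vascular marker SWEET11 averaged 11.2 with compound 6 and 10.8 with compound 3, against 11.0 in control leaves, and the stomatal-lineage marker FMA averaged 5.98 and 5.33, against 5.71, and neither passed. The root marker PYK10 averaged 3.48 with compound 6 and 3.32 with compound 3, against 3.40 in control leaves, below the array medians. Both measured type-A response regulators, which cytokinin induces, rose with both compounds, against the same 3.56% of all clusters. ARR15 rose by 3.08 with compound 6 and by 4.96 with compound 3. ARR15 averaged 2.49 in control leaves, below the array medians, so these sizes are approximate. Its difference between compound 6 and compound 3 was -1.88 (limma adjusted p = 0.00654), a call that ended with all transcript clusters tested (limma adjusted p = 0.0846). Of 9 listed senescence regulators and markers 2 were measured. WRKY6 fell by 0.77 with compound 6 (limma adjusted p = 0.0142), against 4.72% of all clusters, a call kept in 17 of 19 alternatives. With compound 3 WRKY6 differed by -0.27 and did not pass (limma adjusted p = 0.444). SAG101 differed by -0.31 with compound 6 and 0.43 with compound 3, and passed with neither.

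**Figure D5:**
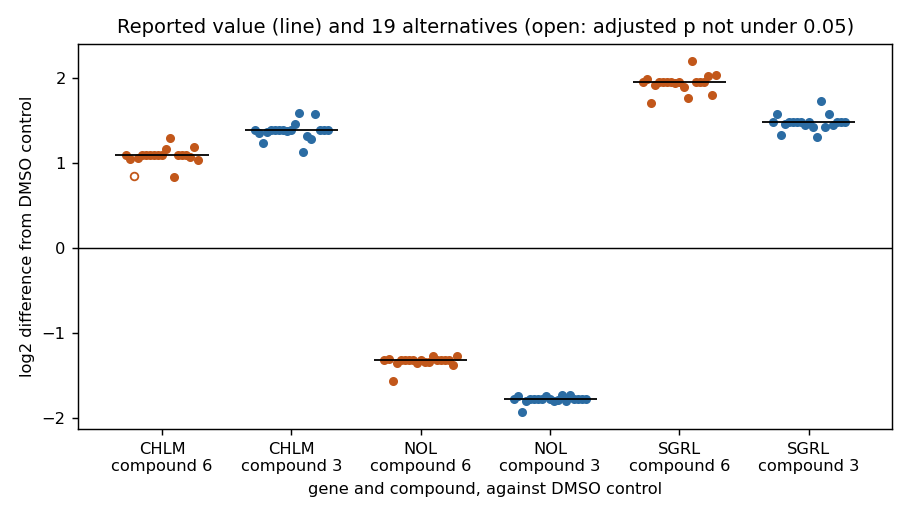
Log2 difference from DMSO control of each gene with each compound, as reported (line) and under 19 alternatives (points, open where the adjusted p was not under 0.05). Every alternative keeps the direction, and 1 of them, for CHLM with compound 6, did not pass.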

How the data were processed

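The authors deposited log2 RMA values, 1 per transcript cluster and array, for 9 Affymetrix arrays, 1 per sample. Per the submitters' processing notes, which give no versions, the tools were RMA (background correction, normalization between arrays and probe summary), oligo and limma. For the genome build, a version was not given in the sources used here. The base of the logarithm is not stated, and log2 was taken from the range of the values. All arrays were used, and none held the same values as another. Arrays have no read depth, and their number limits the precision. Of 38408 transcript clusters, 16722 are paired with 1 gene, 759 with several and 20927 are not named here. Of the 16722, 16670 were found in RefSeq's TAIR10.1 gene table, used for names and gene order only. No sequences are shown.

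Groups were compared in 1 linear model over 9 arrays with limma 3.58.1 (lmFit, eBayes) in R 4.3.3, with 6 residual and 7.89 prior degrees of freedom. P-values are two-sided and Benjamini-Hochberg adjusted over the 16722 clusters. A gene was called under 0.05. An exact permutation test of 3 arrays against 3 cannot give a p under 0.1 and was not used. The method was tested on simulated data, and the outcome is not reported here. Figures used matplotlib 3.10.9. The genes and lists were chosen with earlier results of these data known. The named genes are the 3 members, the measured genes of the chlorophyll lists, up to 2 of each other list or marker list (all 3 mesophyll markers are named), and the 3 genes closest in pattern to each member. Alternatives changed the normalization, the clusters tested, the variance model, the arrays and the replicate block.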

Additional observations from a re-analysis of the deposited data

How the results depend on the processing

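Each difference was recomputed under 19 alternatives. Direction and call were the same in all 19 for NOL and SGRL against control with both compounds and for CHLM with compound 3, and in 18 for CHLM with compound 6, where making the medians of all transcript clusters equal between arrays gave 0.85 (limma adjusted p = 0.0577). That scaling moved the median difference of all clusters of 1 gene to -0.27 with compound 6 and -0.15 with compound 3, against -0.02 and 0.01, and quantile normalization applied again moved it to -0.14 and -0.08. Leaving out 1 array in turn gave 0.84 to 1.29 for CHLM, -1.38 to -1.27 for NOL and 1.77 to 2.20 for SGRL with compound 6, and 1.14 to 1.59, -1.81 to -1.73 and 1.31 to 1.73 with compound 3. The lowest CHLM and highest SGRL values came without DMSO control replicate 3. Between the compounds no gene passed under any alternative, and the lowest adjusted p was 0.227, for NOL. With a replicate block the numbers of called clusters were 1453, 1648 and 29 for compound 6 against control, compound 3 against control and compound 6 against compound 3, and the block ended no call of the 3 genes. The correlation of deviations from group means between same-numbered arrays ran from -0.37 to 0.26, and 2 of 9 were over 0.1. Between arrays of different groups and numbers it ran from -0.32 to 0.51, and 8 of 18 were over 0.1. By this measure same-numbered arrays were no more alike, and whether the samples were paired is not settled by it. Testing all transcript clusters gave 3144, 3360 and 3 calls in the same order, against 1728, 1957 and 50. For compound 6 against compound 3 leaving dim clusters out gave 96 and array weights 135, and leaving out 1 array gave 20 to 112, with 112 without DMSO control replicate 3 and 20 to 29 where the array left out was of either compound. The 44 other calls were among the genes of all lists, the genes closest in pattern and AT4G25070. UGT85A4 entered at its called cluster, as its second cluster has no call. Over these calls 788 of 834 recomputed values kept the call, 46 lost it and none reversed. The 3 arrays a group limit the precision, and signal over background was not measured. The causes of these changes were not tested.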
